A study of Mus musculus with 8 samples.

Results

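Gluconeogenesis, glycogen and fructose metabolism were followed through 8 mouse genes, Fbp1, Pck1, G6pc, Slc2a2, Pygl, Gys2, Khk and Pklr, out of 17097 genes with a probe set of their own on the array. The genes were chosen by name, and each was read from the brightest of its probe sets, by the mean of the 8 arrays. All 8 were on the array. Pklr had 3 probe sets and each of the others had 1. In the text an array value is a log2 signal as deposited, so that a difference of 1 is a 2-fold difference.

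Induced hepatocyte-like cells (iHeps), primary hepatocytes (PH) and mouse embryonic fibroblasts (MEFs) were compared, with 3, 3 and 2 arrays. The iHep lines were grown from fibroblasts after retroviral transduction and sampled at passage 10, 1 array per line. Line 4a3 carried Hnf4a and Foxa3, line 4a3CK carried Hnf4a, Foxa3, c-Myc and Klf4, and line 4a1CK carried Hnf4a, Foxa1, c-Myc and Klf4. The sources used here do not say whether a line is 1 clone, and a line with 1 array has no replicate. PH came from male C57/B6 mice of 8 to 10 weeks by collagenase perfusion and were then cultured in the hepatocyte medium of the lines, so they are cultured cells and not fresh liver. MEFs were primary cells of C57/B6 embryos at day 13.5, and their medium is not given. The hepatocyte medium held 10% fetal bovine serum, 0.1 µM dexamethasone, 10 mM nicotinamide, 1% insulin-transferrin-selenium, FGF4 at 10 ng/ml, and HGF and EGF at 20 ng/ml. Insulin lowers and glucocorticoid raises the transcription of gluconeogenic genes in hepatocytes, and the lines and PH were exposed to both. The labels do not say that PH or MEF arrays came from separate animals or cultures, so the spread within PH and within MEFs may be technical. The p-values rest on 1 spread pooled over the 3 groups, which also holds the differences between lines.

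The liver keeps blood glucose up between meals by making glucose from lactate, amino acids and glycerol and by breaking down glycogen. Pck1 turns oxaloacetate into phosphoenolpyruvate, Fbp1 removes a phosphate from fructose 1,6-bisphosphate, and G6pc frees glucose in the endoplasmic reticulum. Slc2a2, the transporter GLUT2, carries glucose and fructose across the hepatocyte membrane. Gys2 builds glycogen and Pygl takes glucose units off it, both being the liver forms of their enzymes. Khk phosphorylates fructose, and Pklr, the liver and red-cell pyruvate kinase, catalyses the last step of glycolysis and so works against gluconeogenesis. Most of these genes have a counterpart enzyme that other tissues use.

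Promoters of the 3 genes that were higher in PH (Fbp1, Pygl and Khk) are shown beside those of Pck1 and G6pc, the hormone-regulated gluconeogenic genes that stayed low on every array. Each is the 250 bases before a RefSeq start in build GRCm38.p6, read 5′ to 3′ on the strand of the gene. Capitals mark matches, on either strand, to the letters of a core HNF1 site, a core CREB site, an E-box, a TATA box or a CCAAT box, which are spelled out below the sequences. The windows are Fbp1 at chr13:62888283-62888532 on the minus strand, Pygl at chr12:70227684-70227933 on the minus strand, Khk at chr5:30921309-30921558 on the plus strand, Pck1 at chr2:173152823-173153072 on the plus strand and G6pc at chr11:101367466-101367715 on the plus strand.
Fbp1: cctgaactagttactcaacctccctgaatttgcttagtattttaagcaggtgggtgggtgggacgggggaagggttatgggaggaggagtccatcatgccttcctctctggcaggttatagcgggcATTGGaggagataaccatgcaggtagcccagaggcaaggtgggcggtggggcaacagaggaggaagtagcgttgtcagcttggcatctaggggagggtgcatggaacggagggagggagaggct
Pygl: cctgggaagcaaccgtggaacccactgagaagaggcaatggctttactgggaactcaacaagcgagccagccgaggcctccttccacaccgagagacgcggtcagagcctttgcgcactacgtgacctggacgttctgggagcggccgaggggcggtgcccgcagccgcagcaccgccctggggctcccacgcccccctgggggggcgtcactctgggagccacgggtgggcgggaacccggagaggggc
Khk: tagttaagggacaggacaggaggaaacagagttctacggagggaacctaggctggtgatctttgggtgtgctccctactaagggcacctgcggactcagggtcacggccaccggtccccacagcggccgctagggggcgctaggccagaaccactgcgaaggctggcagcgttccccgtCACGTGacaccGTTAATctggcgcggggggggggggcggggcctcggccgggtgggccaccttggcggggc
Pck1: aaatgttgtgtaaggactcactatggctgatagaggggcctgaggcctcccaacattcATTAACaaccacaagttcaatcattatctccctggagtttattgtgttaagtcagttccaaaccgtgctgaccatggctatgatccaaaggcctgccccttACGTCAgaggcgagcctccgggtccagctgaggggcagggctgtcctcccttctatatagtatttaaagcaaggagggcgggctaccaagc
G6pc: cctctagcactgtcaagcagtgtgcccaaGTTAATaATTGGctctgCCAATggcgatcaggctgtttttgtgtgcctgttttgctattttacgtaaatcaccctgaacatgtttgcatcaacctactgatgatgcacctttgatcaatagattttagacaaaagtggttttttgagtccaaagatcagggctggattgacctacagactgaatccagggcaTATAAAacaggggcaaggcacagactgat

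The table of promoters held 7 of the 8 genes, with 2 starts for Pklr, and named no Gys2. GTTAAT, the core of an HNF1 site, was in 3 of these 8 windows, those of G6pc, Khk and Pck1, and in 6.43% of all 32851 promoter windows. ACGTCA, the core of a CREB site, was found at positions -91 to -86 of Pck1, a gene known for its cAMP response element, in no other member, and in 6.47% of all windows. CACGTG, an E-box, was found in Khk alone and in 6.02% of all windows. TATAAA lay at positions -29 to -24 of G6pc and before the second start of Pklr, against 12.4% of all windows. CCAAT lay in Fbp1, G6pc, Slc2a2 and the second Pklr window, against 33.8% of all windows. CAAAGTC, the core of an HNF4 site, and the forkhead letters TGTTTAC and TATTTAC were in none of the 8 windows, and in 3.84%, 3.17% and 2.73% of all windows. Matches to different motifs did not overlap in these windows. These are matches of letters in a short window, and the Pygl window held none of those searched. The letters do not sort the 3 genes that were higher in PH from the rest.

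The arrays were not on 1 level. In 93.2% of genes PH 3 exceeded PH 1 and PH 2 averaged, with a median difference of 0.71, and its non-specific control probe sets had a median of 3.47, against 2.80 on PH 1 and PH 2. The lines were slightly raised too. Their medians over all probe sets were 4.40 to 4.45, against 4.23 to 4.24 on PH 1, PH 2, MEF 1 and MEF 2. PH 1 and PH 2 were close to each other: the SD of their differences over genes was 0.159, against 0.570 for the pair of MEF arrays. The summed linear signal of 12 hepatocyte markers was 1654 to 13680 in the lines and 13040 to 15670 in PH, against 279.6 to 462.3 in MEFs, with line 4a1CK lowest of the lines. Such a sum is weighted towards the brightest markers. Of these markers 7 passed as higher in PH than in MEFs, among them Alb and Ttr, against 3.37% of all genes. In the lines 1 of the 12 passed as higher than in MEFs, against 1.98% of all genes, with a median difference of 0.57. Compared with PH, 4 of the 12 passed as lower in the lines, against 5.64% of all genes, with a median of -1.64. The summed signal of 10 fibroblast markers was 4485 to 9013 in the lines and 8030 to 10120 in PH, against 14520 to 23170 in MEFs. Taken singly, 6 passed as lower than in MEFs in the lines and 6 in PH, against 4.47% and 2.47% of all genes. Their median differences were -5.53 and -4.53. In the lines 7 of the 10, and in PH 5, lay less than 1 above the highest non-specific probe set on every array. The summed signal of 10 macrophage markers was 151 to 236.9 in the lines and 169.9 to 284.9 in PH, against 601.7 to 1098 in MEFs. In PH, 6 of 8 liver endothelial markers and 6 of 6 kidney tubule markers lay less than 1 above the highest non-specific probe set on every array. By the same measure fewer markers of other types lay so low in PH. They were 5 of 10 for macrophages, 4 of 6 for blood cells, 3 of 7 for stellate cells, 3 of 10 for intestine and 1 of 6 for cholangiocytes. The part of other cells in the results below was not tested. In such bulk samples, fewer cells of a type and less RNA per cell cannot be told apart.

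Fbp1 was the member that separated the groups most firmly. It was high in PH, low in the lines and lowest in MEFs. Its value was 4.83 in line 4a3, 4.59 in 4a3CK and 4.43 in 4a1CK, 6.42, 7.39 and 7.75 in PH 1, 2 and 3, and 3.59 and 3.96 in MEF 1 and 2. No group overlapped another. PH exceeded MEFs by 3.41 ± 0.38 (SE), a 10.6-fold difference (limma, adjusted p = 0.00116), with means of 7.19 ± 0.69 (SD, n = 3) in PH and 3.78 ± 0.26 (SD, n = 2) in MEFs. The lines averaged 4.62 ± 0.20 (SD, n = 3) and were below PH, with a difference of -2.57 ± 0.34 (SE), which is 5.95-fold (adjusted p = 0.00342). Against MEFs the lines differed by 0.84 ± 0.38, which did not pass (adjusted p = 0.26). The PH difference passed in all 26 alternative settings tried, at 3.13 to 3.80, and the iHep-PH difference in all 23, at -3.00 to -2.29.

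Among PH arrays Fbp1 also stood apart between PH 1 and PH 2. It was 0.97 higher in PH 2, and of 17097 genes only 24 lay at least that far apart between these arrays in either direction. PH 3 was 0.85 above their mean, not far from the median of all genes, 0.71. The mean of Fbp1 over the median of the non-specific probe sets was 1.62 in the lines and 4.17 in PH, against 0.96 in MEFs.

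Pck1 and G6pc, the other gluconeogenic members, were low everywhere. Pck1 was 4.15, 3.99 and 4.25 in 4a3, 4a3CK and 4a1CK, 3.90, 3.96 and 4.69 in PH 1, 2 and 3, and 3.93 and 3.90 in the MEFs. PH 1 and PH 2 were at the level of MEFs, and only PH 3, the array raised in most genes, was higher. G6pc was 3.78, 3.74 and 3.83 in the lines, 3.83, 3.71 and 4.34 in PH, and 3.42 and 3.45 in the MEFs. For G6pc every line and every PH array exceeded both MEF arrays, by a small distance, while lines and PH overlapped. The PH-MEF difference was 0.27 ± 0.28 (SE) for Pck1 and 0.52 ± 0.25 for G6pc, and neither passed (limma, adjusted p = 0.654 and 0.354). Between lines and PH the differences were -0.05 for Pck1 and -0.17 for G6pc (adjusted p = 0.957 and 0.775). G6pc averaged 0.79 over the non-specific median in the lines and 0.93 in PH, against 0.62 in MEFs, and Pck1 averaged 1.14 and 1.16, against 1.10. For G6pc the iHep-MEF difference was 0.35, with adjusted p = 0.466, and without PH 3 the adjusted p was 0.0213 with a difference still under 1. With array medians subtracted that difference was 0.15, and without PH 3 as well its adjusted p was 0.175. A p that misses the threshold does not show that the groups were alike.

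**Figure D1:**
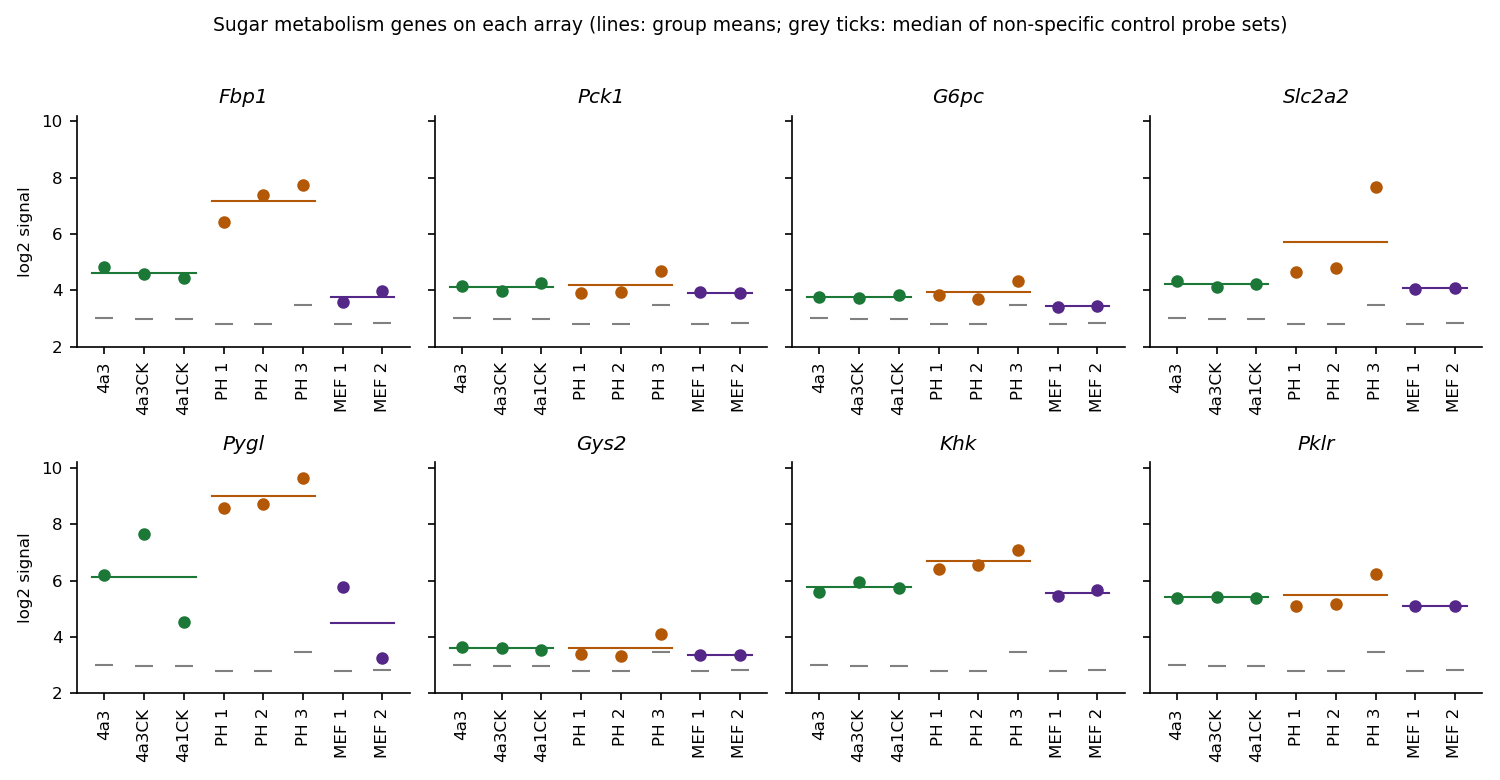
Log2 signal of the 8 genes on each array, with iHep lines in green, PH in orange and MEFs in purple, a line at each group mean and a grey tick at the median of the non-specific control probe sets of that array. Fbp1 and Pygl are raised on all 3 PH arrays, Slc2a2 stands high on PH 3 alone at 7.68, and Pck1, G6pc and Gys2 lie near the grey ticks on every array.

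Slc2a2, the glucose and fructose transporter, had a single high array. Its value was 4.32, 4.14 and 4.24 in the lines, 4.66, 4.78 and 7.68 in PH 1, 2 and 3, and 4.05 and 4.09 in the MEFs. Every PH array lay above every line and both MEF arrays, but PH 1 and PH 2 by less than 1. PH 3 exceeded the mean of PH 1 and PH 2 by 2.96, and only 25 genes of all 17097, 0.146%, had a larger excess on that array. The PH-MEF difference of 1.64 ± 0.78 (SE) and the iHep-PH difference of -1.48 ± 0.70 did not pass (limma, adjusted p = 0.364 and 0.285). Without PH 3 they shrank to 0.65 and -0.49, with adjusted p = 0.0164 and 0.013, under the minimum difference of 1. Lines and MEFs differed by 0.16 (adjusted p = 0.922).

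Pygl, the liver glycogen phosphorylase, gave the widest PH-MEF difference of the 8 genes and was the member that varied most among lines. It was 6.19 in 4a3, 7.65 in 4a3CK and 4.52 in 4a1CK, 8.59, 8.74 and 9.65 on the PH arrays, and 5.77 and 3.24 on MEF 1 and 2. PH lay above every other array, and the lines and MEFs overlapped. The MEF 2 value was at the floor, 0.41 over the non-specific median and under the highest non-specific probe set of that array, 3.34. PH exceeded MEFs by 4.49 ± 0.95 (SE), a 22.5-fold difference (limma, adjusted p = 0.027), with means of 9.0 ± 0.57 (SD, n = 3) in PH and 4.50 ± 1.79 (SD, n = 2) in MEFs. This call did not hold without PH 1 (adjusted p = 0.0646), without PH 2 (0.0684), without PH 3 (0.118) or without MEF 2 (3.23, adjusted p = 0.191). Without MEF 1 it was 5.75 (0.0246) and passed. The MEF arrays themselves were 2.52 apart in Pygl, and 113 genes, 0.661%, were further apart with MEF 1 higher.

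The lines averaged 6.12 ± 1.57 (SD, n = 3) for Pygl. Their difference from PH was -2.88 ± 0.85 (SE) and did not pass (limma, adjusted p = 0.0794), and that from MEFs was 1.61 ± 0.95 (adjusted p = 0.383). The difference from MEFs was 0.35 without MEF 2, 2.88 without MEF 1, 0.85 without 4a3CK and 2.41 without 4a1CK, and passed in none of these. Without line 4a3CK, the highest of the lines, the iHep-PH difference was -3.64 and passed (adjusted p = 0.0228), and without 4a1CK it was -2.08 (0.185). Line 4a3CK exceeded 4a1CK by 3.13, and 4a3 lay between them. Line 4a3CK also stood apart in the summed linear signal of 10 intestine markers, 17140, against 2091 in 4a3, 896.9 in 4a1CK, 357.5 to 514.9 in PH and 303.4 to 304.3 in MEFs. The sum of 6 cholangiocyte markers was 2228 in 4a3CK, 1264 in 4a3 and 1822 in 4a1CK, 507.5 to 730.8 in PH and 229.5 to 263.1 in MEFs. Their part in the Pygl values was not tested.

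Gys2, the liver glycogen synthase, was at the floor of the array. It was 3.65, 3.62 and 3.53 in the lines, 3.40, 3.34 and 4.12 in PH, and 3.35 on each MEF array. PH 1 and PH 2 were below all lines and level with MEFs, and only PH 3 was higher. The PH-MEF difference was 0.27 ± 0.28 (SE), the iHep-MEF difference 0.25 and the iHep-PH difference -0.02, and none passed (limma, adjusted p = 0.649, 0.65 and 0.984). Gys2 averaged 0.60 over the non-specific median in the lines and in PH, against 0.53 in MEFs, and 4 of 8 arrays exceeded the highest non-specific probe set.

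Khk, which starts fructose breakdown, was moderately higher in PH. It was 5.60, 5.96 and 5.76 in the lines, 6.42, 6.56 and 7.09 in PH, and 5.44 and 5.66 in the MEFs. PH lay above all other arrays, while the line 4a3 fell between the MEF arrays. PH exceeded MEFs by 1.14 ± 0.27 (SE), a 2.20-fold difference (limma, adjusted p = 0.0419). This call was close to both thresholds. It was lost without any 1 of the 8 arrays, at adjusted p = 0.0533 to 0.274 for 7 of them, and without PH 3 because the difference, 0.94, was under 1. With array medians subtracted the difference was 0.87, and after quantile normalization 0.91. The lines differed from PH by -0.92 ± 0.24 (adjusted p = 0.0516), and from MEFs by 0.22 (adjusted p = 0.681).

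Pklr depended on the probe set. By its brightest probe set it was 5.40, 5.43 and 5.39 in the lines, 5.11, 5.17 and 6.25 in PH, and 5.10 and 5.09 in the MEFs, with PH 3 alone above the lines. The PH-MEF difference was 0.41 ± 0.34 (SE) and the iHep-PH difference -0.10 (limma, adjusted p = 0.626 and 0.927). A second probe set gave 4.56, 4.61 and 4.57 in the lines, 4.37, 4.43 and 5.17 in PH, and 4.13 and 4.31 in the MEFs, again with PH 3 alone above the lines. The other probe set gave 4.54, 4.36 and 4.31 in the lines, 5.36, 6.11 and 6.31 in PH, and 4.18 and 4.24 in the MEFs, with PH above every other array. With this probe set, chosen after seeing its values, PH exceeded MEFs by 1.72 (adjusted p = 0.0114) and the lines lay below PH, at -1.52 (adjusted p = 0.0123). Which transcript each probe set reads was not analysed here.

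**Figure D2:**
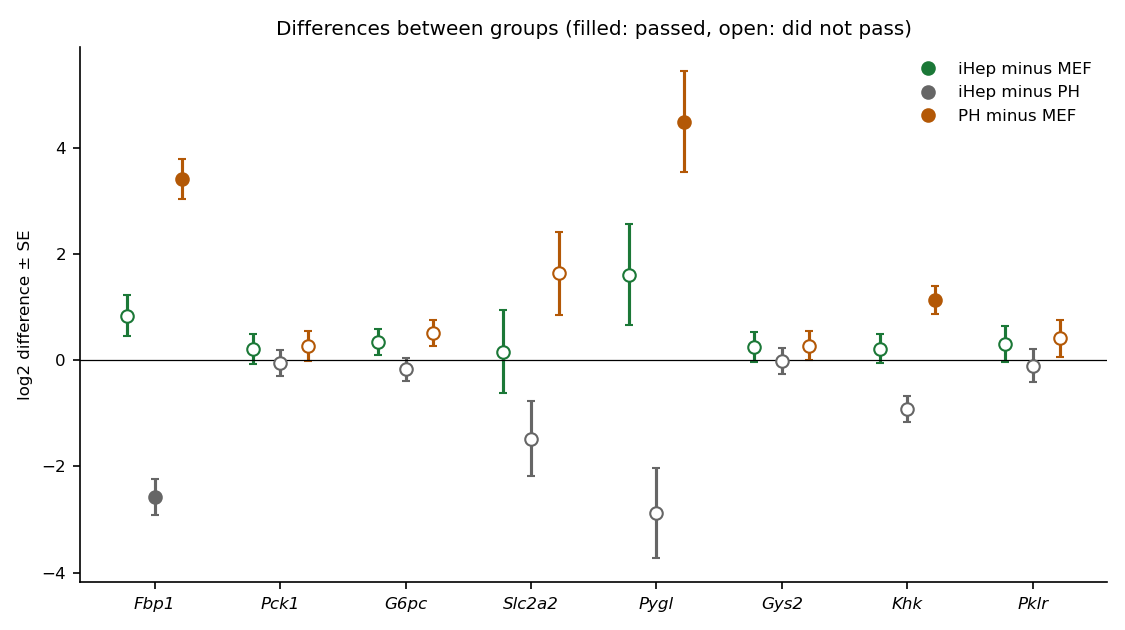
Log2 difference with its standard error for each gene, iHep minus MEF in green, iHep minus PH in grey and PH minus MEF in orange, with filled points for differences that passed. Fbp1, Pygl and Khk are filled for PH minus MEF at 3.41, 4.49 and 1.14, Fbp1 alone is filled for iHep minus PH at -2.57, and no point is filled for iHep minus MEF.

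Counted over the 8 genes, 3 passed as higher in PH than in MEFs and 0 as lower, at an adjusted p under 0.05 with a difference of at least 1. Over all genes 3.37% passed as higher and 5.85% in either direction. The median PH-MEF difference was 0.83 for the 8 genes, against 0.25 for all genes. Between lines and MEFs 0 of 8 passed by limma, while 6.45% of all genes passed in either direction, and 0 of 8 had an unadjusted p under 0.05, against 20.9% of all genes. Between lines and PH 1 of 8 passed as lower, Fbp1, against 5.64% of all genes lower and 7.13% in either direction, and 3 of 8 had an unadjusted p under 0.05, against 20.7% of all genes. The median iHep-PH difference was -0.55 for the 8 genes, against -0.09 for all genes.

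Taken by array, every PH array lay above both MEF arrays in 6 of 8 genes, against 30.1% of all genes. Every line lay above both MEF arrays in 6 of 8, against 42.6% of all genes, though the lines also had the higher array medians. With array medians subtracted, the iHep-MEF difference was 0.65 for Fbp1, 0.15 for G6pc and 0.12 for Pklr. It was 0.06 for Gys2, 0.02 for Pck1 and -0.03 for Slc2a2. Every line lay below every PH array in 4 of 8 (Fbp1, Pygl, Khk and Slc2a2), against 21.3% of all genes. For these 4 genes the lines were on the MEF side of PH on every array.

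Between lines, Pygl was the single member that lay 2 or more apart, in 4a3CK against 4a1CK, where 3.16% of all genes did. In 4a3 against 4a3CK 0 of 8 did, with a background of 2.23%, and in 4a3 against 4a1CK 0 of 8, with 1.32%. The largest line difference of the other 7 genes was 0.41, for Fbp1 in 4a3 against 4a1CK. Line 4a3CK also had the highest Hnf4a signal of the lines, 9.59, against 6.04 in 4a3 and 5.50 in 4a1CK, and PH had 9.48 to 9.78. All 3 lines carried Hnf4a, and whether its probe set reads the transduced copy is not stated in the sources used here. Pygb, the brain form of glycogen phosphorylase, ran in the same order among lines, at 8.52 in 4a3, 9.33 in 4a3CK and 6.40 in 4a1CK. With 1 array per line these are differences between arrays, with no test.

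The counterpart enzymes of other tissues were set beside the liver forms, each gene on its own brightest probe set, so that only differences between groups are read. Of 8 counterparts 1 passed, Pkm, the pyruvate kinase of muscle and proliferating cells. Over all genes 5.85% passed for PH against MEFs and 7.13% for lines against PH. Pkm was 10.05 in each line, 8.43, 8.38 and 8.44 in PH, and 10.70 and 10.24 in the MEFs, so that PH was low and no group overlapped another. PH lay below MEFs, with a difference of -2.05 (limma, adjusted p = 0.000891), and the lines above PH, at 1.63 (adjusted p = 0.00211). The iHep-MEF difference in Pkm was -0.42 and did not pass.

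The other 7 counterparts did not pass in any comparison. For Slc2a1, the widespread glucose transporter GLUT1, the iHep-PH difference was 1.10, with lines at 9.76, 9.56 and 9.15 and PH at 7.92, 8.05 and 9.21, which overlapped. A second Slc2a1 probe set did not show this difference, with lines at 7.48, 7.65 and 7.19 and PH at 7.27, 7.23 and 7.87. For Gys1, the muscle glycogen synthase, the PH-MEF difference was -1.04 and the iHep-PH difference 0.82. For Pygb the PH-MEF difference was -0.60 and for Pygm, the muscle phosphorylase, 0.26. For Pck2, the mitochondrial carboxykinase, it was -0.55, for G6pc3, the widespread glucose-6-phosphatase, -0.11, and for Fbp2, the muscle fructose bisphosphatase, 0.30. A second, dimmer Pck2 probe set gave 4.24, 4.10 and 4.79 in PH and 4.67 and 3.67 in the MEFs, so PH was not lower there. Fbp2 was 6.43 in line 4a3CK, against 4.81 in 4a3 and 4.63 in 4a1CK.

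**Figure D3:**
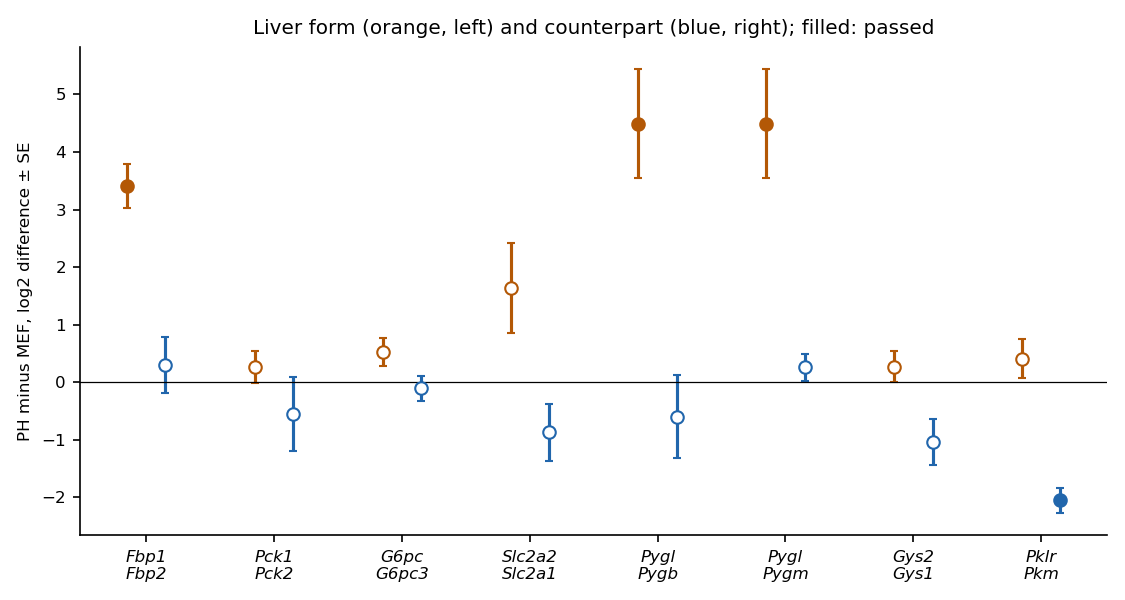
PH minus MEF difference on the log2 scale with its standard error, for each liver form (orange, left) and its counterpart (blue, right), with filled points for differences that passed. Fbp1 and Pygl are filled above 0, at 3.41 and 4.49, and Pkm is the filled counterpart, at -2.05.

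Other genes of the same pathways were read from lists of 119 genes, counterparts included, of which 101 were on the array with a probe set of their own. Over all genes 3.37% passed as higher and 2.47% as lower in PH against MEFs. The shares were 1.98% and 4.47% in lines against MEFs, and 1.49% and 5.64% in lines against PH. Of 18 other gluconeogenesis genes 2 passed as higher in PH than in MEFs and 0 as lower, with a median of 0.12. They were Gpt2, the mitochondrial alanine aminotransferase, at 4.44 (limma, adjusted p = 0.00023; 3.55 as the mean of its probe sets), and Slc25a13, the mitochondrial aspartate-glutamate carrier citrin, at 1.34 (0.0117). Slc25a13 did not pass when MEF 1 was left out (adjusted p = 0.121) or when MEF 2 was (0.0594). The same 2 genes passed as higher in lines than in MEFs, Gpt2 at 2.36 and Slc25a13 at 1.05, with a list median of 0.45, and Gpt2 did not pass there without MEF 2 (adjusted p = 0.0643). Slc25a13 did not pass there without any 1 of 7 arrays, PH 3 being the exception (adjusted p = 0.0523 to 0.243).

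Gpt2 took a middle position in the lines. It was 7.97, 8.60 and 7.51 in the lines, 10.02, 10.14 and 10.15 in PH, and 6.11 and 5.22 in the MEFs, with no overlap between groups. Between lines and PH it differed by -2.08 (limma, adjusted p = 0.00786). Gpd1, which links glycerol to this pathway, was lower in lines than in PH as well, at -1.51 (0.0391), and Pgk1, an enzyme shared by glycolysis and gluconeogenesis, was higher, at 1.43 (0.0298). As the mean of all its probe sets Gpd1 was -0.69 and did not pass (adjusted p = 0.46). Gpd1 was also not called when 1 of 4a3, 4a3CK, 4a1CK, PH 1, MEF 1 or MEF 2 was left out (adjusted p = 0.0639 to 0.108), nor Pgk1 when 1 of 4a3, 4a1CK, PH 1 or PH 2 was (0.0878 to 0.113). The median of the 18 genes was 0.44 for lines against PH.

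Of 24 other glycogen genes 1 passed as higher in PH than in MEFs, Phkg2, the catalytic subunit of liver phosphorylase kinase, at 1.17 (limma, adjusted p = 0.0303). That is 4.17% of the list, near the 3.37% of all genes. Leaving out 4a3, PH 1, PH 2, MEF 1 or MEF 2 ended the Phkg2 call (adjusted p = 0.0634 to 0.195). In lines against MEFs 2 were higher and 1 lower. Gbe1, the glycogen branching enzyme, was higher by 2.77 (0.00704), Phka2, a regulatory subunit of liver phosphorylase kinase, by 2.07 (0.0401), and Gaa, the lysosomal glucosidase, lay at -1.76 (0.0247). The Gbe1 call did not hold without MEF 1 (adjusted p = 0.0513). That of Phka2 ended without 4a3, 4a3CK, PH 1, PH 2, MEF 1 or MEF 2 (0.0611 to 0.201), and that of Gaa without 4a3, 4a1CK, MEF 1 or MEF 2 (0.0501 to 0.167). Gbe1 was 8.11, 7.08 and 8.34 in the lines, 6.54, 6.36 and 7.31 in PH, and 5.07 on each MEF array. Lines and PH overlapped in Gbe1, and both lay above MEFs. In lines against PH 0 of 24 passed by limma, and 7, or 29.2%, had an unadjusted p under 0.05, against 20.7% of all genes. The list medians were 0.25 for PH against MEFs, 0.38 for lines against MEFs and 0.20 for lines against PH.

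Of 9 other fructose and polyol genes 0 passed in any comparison by limma. An unadjusted p under 0.05 was found for 0 in PH against MEFs, for 1 in lines against MEFs and for 3 in lines against PH, where 16.4%, 20.9% and 20.7% of all genes had one. Of 19 genes of glucose uptake and phosphorylation, some of them also counterparts, 2 were lower in PH than in MEFs, Pkm and the neuronal transporter Slc2a3, at -1.71 (adjusted p = 0.0197). Without probe sets that can bind several transcripts the Slc2a3 difference turned to 0.48 (adjusted p = 0.607). The call also ended without PH 1, PH 2, MEF 1 or MEF 2 (adjusted p = 0.0565 to 0.167). Slc2a3 was also lower in lines than in MEFs, at -1.60 (0.0275), and Slc2a9, a urate and hexose transporter, was higher there, at 1.64 (0.00836). Without probe sets that can bind several transcripts the iHep-MEF difference of Slc2a3 turned to 0.50 as well (adjusted p = 0.447), and it was -0.36 as the mean of all its probe sets (0.579). Slc2a3 also lost that call without 4a3, 4a1CK, MEF 1 or MEF 2 (0.0715 to 0.205), and Slc2a9 without MEF 1 (0.0626) or MEF 2 (0.0643). In lines against PH 3 were higher, Hk2, a hexokinase of muscle and growing cells, at 2.77 (0.011), Pkm and Slc2a9, at 1.11 (0.0233). Hk2 was 8.83, 9.82 and 8.03 in the lines, 5.67, 5.84 and 6.86 in PH, and 8.41 and 8.08 in the MEFs, so that PH was low and lines and MEFs overlapped. The Hk2 call did not hold without PH 1 (adjusted p = 0.051), and that of Slc2a9 ended without any 1 line, PH 1 or PH 2 (0.0506 to 0.0937).

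Among the regulators of hepatic glucose genes, of 32 measured, 7 were higher in PH than in MEFs, against 3.37% of all genes, and 0 lower, with a median of 0.98. In lines against PH 7 were lower, against 5.64% of all genes, and 1 higher, against 1.49%. The same 7 made up both counts, and comparisons that share PH arrays are not separate evidence. They were the liver transcription factors Onecut1, Foxa1, Foxa2, Foxa3 and Cebpa, the bile acid receptor Nr1h4, and Igfbp1, an insulin-suppressed secreted protein. All 7 passed in every alternative setting tried for both comparisons. Igfbp1 was 3.78, 3.73 and 3.77 in the lines, 9.28, 8.94 and 10.73 in PH, and 3.49 and 3.58 in the MEFs. Every PH array was high and the lines were level with MEFs, with an iHep-PH difference of -5.89 and a PH-MEF difference of 6.12.

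Foxa1 differed by -3.98 between lines and PH, Foxa2 by -2.57, Foxa3 by -2.45, Onecut1 by -2.75, Nr1h4 by -3.64 and Cebpa by -1.57. Without PH 3 the Foxa1 difference was -3.24 for lines against PH and 3.60 for PH against MEFs. Foxa1 was 4.01 in 4a1CK, the line given Foxa1, against 4.19 and 3.87 in 4a3 and 4a3CK. Foxa3 was 3.94 and 3.99 in 4a3 and 4a3CK, which were given Foxa3, against 3.92 in 4a1CK. The sources used here do not say whether these probe sets lie in the transduced sequence, so the values check nothing about delivery. Hnf4a differed by 3.97 between PH and MEFs and did not pass (limma, adjusted p = 0.0585). In lines against MEFs 2 regulators were higher, the insulin receptor Insr at 2.52 (0.0335) and Fkbp5, a glucocorticoid-induced gene, at 2.97 (0.013). Fkbp5 was 11.21, 9.51 and 10.58 in the lines, 7.68, 7.47 and 8.60 in PH, and 7.68 and 7.25 in the MEFs, so that lines were above all other arrays, and it was the 1 regulator higher in lines than in PH, at 2.52 (0.0141). PH and MEFs overlapped. The Fkbp5 difference from MEFs did not pass without MEF 1 (0.0583) or MEF 2 (0.0899), and that from PH not without PH 1 (0.0608) or PH 2 (0.0596). With the mean of all probe sets Insr was 0.99 (0.164) and Fkbp5 1.88 against MEFs and 1.57 against PH. With accession range as a block Insr did not pass (0.0924). It also lost its call without 4a3, 4a1CK, MEF 1 or MEF 2 (0.0792 to 0.193).

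The genes most like a member over the 8 arrays were found by Pearson's r among 3505 genes that, like Fbp1, Pygl and Slc2a2, spanned at least 2. For Fbp1 they were Cebpa (0.987), St6gal1 (0.987) and Cideb (0.986). Cebpa was 5.71, 5.66 and 5.15 in the lines, 6.82, 7.05 and 7.34 in PH, and 4.77 and 5.01 in the MEFs, the same order of groups as Fbp1, also with PH 1 lowest of PH. For Pygl they were Pon3 (0.983), Kat2b (0.982) and Nudt18 (0.972). Pon3 was 5.47, 6.23 and 4.62 in the lines, 7.20, 7.16 and 7.76 in PH, and 5.87 and 4.23 in the MEFs, with 4a3CK highest of the lines and MEF 1 above MEF 2, as for Pygl. For Slc2a2 they were 9130016M20Rik (0.997), Thrsp (0.993) and Cyp1a2 (0.993), each of them highest on PH 3. Cyp1a2 was 6.79 on PH 3, against 3.82 on PH 1 and on PH 2, so this likeness rests on 1 array. The 8 points share 3 groups and the level of each array, and the values are a description with no test.

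**Figure D4:**
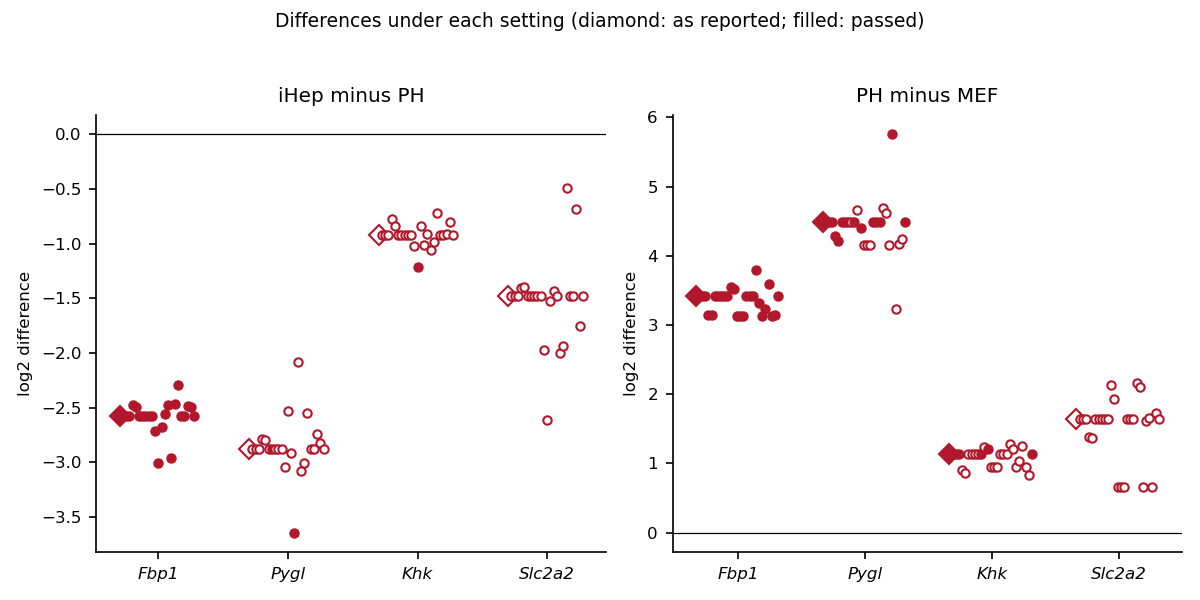
Log2 difference of Fbp1, Pygl, Khk and Slc2a2 under every setting tried, iHep minus PH on the left and PH minus MEF on the right, with a diamond for the reported value and filled symbols where the difference passed. Fbp1 is filled throughout, Pygl and Khk have filled and open symbols in both panels, and Slc2a2 is open throughout.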

How the data were processed

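Total RNA of 3 iHep lines, 3 PH samples and 2 MEF samples was hybridised to Affymetrix mouse 3' expression arrays, 1 per sample. The authors deposited log2 signals of probe sets, computed by RMA in Partek per the submitters' processing notes, with versions not given in the sources used here. RMA subtracts background and is meant to set arrays on a common scale, and it compresses differences of dim probe sets. The deposited arrays did not share 1 level, with medians over all probe sets of 4.23 to 5.06. Of 45141 probe sets, 104 were controls, 28898 had 1 gene symbol, 551 several and 15692 none. The 28898 covered 17097 genes, and 7180 genes had more than 1 probe set. Precision is limited by the small number of arrays.

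Values were used as deposited. Using limma 3.58.1 (lmFit, eBayes; R 4.3.3), 1 model of 3 groups was fitted to all 17097 genes on 8 arrays, with 5 residual degrees of freedom. Comparisons were two-sided and adjusted by Benjamini and Hochberg over all genes. To pass, a gene needed both an adjusted p under 0.05 and at least 1 of log2 difference. The model pools the spread of all groups, so differences between lines enter every standard error. The pipeline was tested on simulated data. Promoters came from RefSeq (GRCm38.p6). Python 3.11.15 was used with numpy 2.4.6 and pandas 2.3.3 for tables and matplotlib 3.10.9 for plots.

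The members and lists were chosen with earlier results of these data known. Named genes were the 8 members, their counterparts, up to 6 genes per other pathway list and comparison with the largest differences among those that passed, up to 2 per marker list, and the 3 genes most like each member that spans at least 2. The limit of 6 was not kept for the regulators, where every gene that passed was named. Hnf4a and the genes compared between lines were named after their values were seen. Alternatives were other probe sets, a filter on dim genes, quantile normalization, subtracted array medians, other variance models and group layouts, stricter thresholds, PH 1 and PH 2 averaged, and each array left out. Blocks by accession range and by replicate number were also tried. By range, the lines, PH 3 and MEF 2 fell together, and PH 1, PH 2 and MEF 1 fell together. What the range marks is not given in the sources used here, and its part in the gaps within PH and within MEFs was not tested. All 3 lines lay in 1 range, so range and group are partly mixed in every comparison with the lines. With range as a block the iHep-MEF difference went from 0.84 to 0.52 for Fbp1, from 0.16 to -0.69 for Slc2a2 and from 0.31 to -0.01 for Pklr. Among the 8 genes it rose for Pygl alone, from 1.61 to 1.87.

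Replicate numbers are shared by only 2 pairs, PH 1 and 2 with MEF 1 and 2, and nothing in the labels says that a number marks a shared day or animal, so they were not used to pair arrays.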

Additional observations from a re-analysis of the deposited data

How the results depend on the processing

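Of the 8 genes, 3 passed for PH against MEFs, and Fbp1 was among those that passed in all 26 alternatives. The count was 1 at an adjusted p under 0.01, 1 with PH 1 and PH 2 averaged, 1 with the same and array medians subtracted, 1 with medians subtracted and without PH 3, and 1 to 2 when single arrays were left out. The count was 4 with another Pklr probe set, chosen after seeing its values (Fbp1, Khk, Pklr and Pygl). Pygl did not pass in 11 of the 26 and Khk in 20. With the replicate number as a block (replicate block, PH 1 and 2 with MEF 1 and 2) the count was also 1, and the same 4 arrays without the block gave 1. Over all genes the block called 900, no pairing 1475 and the crossed pairing 1307 genes, with 1 member under the crossed pairing, which was added after seeing that deviations of PH 1 and MEF 1 correlated at -0.20. For lines against MEFs 0 passed in all 23 alternatives. For lines against PH 1 passed, and 2 did with each line its own group (Fbp1 and Pygl), with accession range as a block (Fbp1 and Khk) and with another Pklr probe set (Fbp1 and Pklr), and 1 to 2 when single arrays were left out. The number of genes called ranged over 522 to 1475 of 17097 for PH against MEFs, against 1000 as reported, over 389 to 1874 for lines against MEFs, against 1103, and over 476 to 1806 for lines against PH, against 1219. No difference of the 8 genes that passed changed sign, while Slc2a3, which passed as lower in PH and in lines than in MEFs, gave 0.48 and 0.50 without probe sets that can bind several transcripts. Differences that did not pass changed sign in at least 1 alternative for Gys2, Pck1, Slc2a2, Pklr and G6pc. G6pc and Gys2 lay within the range of non-specific probe sets on some arrays, and Pygl did on MEF 2. The cause of these changes was not tested.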

Other observations

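Among the 32 regulators, 7 were at least 2 higher in 4a3 than in 4a3CK (Cebpb, Irs1, Klf15, Lpin1, Pdk4, Sik1 and Tsc22d3) and 1 was at least 2 lower, Hnf4a. Over all genes 2.23% were at least 2 apart between these lines, in either direction. Between 4a3CK and 4a1CK 5 of the 32 were at least 2 lower in 4a3CK (Cebpb, Irs1, Klf15, Pdk4 and Tsc22d3), and Hnf4a was higher. There 3.16% of all genes were at least 2 apart in either direction. Pdk4, a kinase that holds back glucose oxidation, was 11.56 in 4a3, 4.82 in 4a3CK and 11.26 in 4a1CK. PH had 3.70, 3.69 and 7.03 and the MEFs 4.74 and 3.43. Tsc22d3, the glucocorticoid-induced leucine zipper gene, was 10.85, 6.11 and 10.70 in the same lines, 7.94, 7.86 and 9.45 in PH, and 6.78 and 6.36 in the MEFs. Fkbp5, also glucocorticoid-induced, was lowest of the lines in 4a3CK. Igfbp1 was 3.78, 3.73 and 3.77 in these lines, and Pck1 and G6pc were at most 0.26 apart between any pair of lines. Igfbp1 and G6pc lay near the highest non-specific probe set of each line, 3.64 to 3.81, and Pck1 averaged 1.14 over the non-specific median. Values so near the floor say little about a response. These genes were named after their values were seen, each line has 1 array, and no test was made.

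Single genes of sugar metabolism also set 1 line apart. Tkfc, which encodes triokinase, the enzyme after ketohexokinase and aldolase in fructose breakdown, was 7.26 in 4a1CK, against 5.30 in 4a3 and 4.79 in 4a3CK, with 5.60, 5.46 and 5.58 in PH. Ppp1r3c, a subunit that brings a phosphatase to glycogen, was 7.49 in 4a3, against 4.59 in 4a3CK and 5.28 in 4a1CK. Stbd1, a glycogen-binding protein, was 3.82 in 4a3CK, against 5.97 in 4a3 and 6.65 in 4a1CK. These genes were picked for a gap of at least 2 between a pair of lines. Of 24 other glycogen genes 2 had one in 4a3 against 4a3CK, where 2.23% of all genes did. In 4a3 against 4a1CK 2 did, with 1.32% of all genes. In 4a3CK against 4a1CK 1 was higher and 1 lower, as was 1 of 9 other fructose and polyol genes, with 3.16% of all genes apart. Each line has 1 array, and no test was made.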
